A study of Mus musculus with 20 samples.

Results

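Spermatids and then sperm package their DNA with a small set of basic nuclear proteins, and 7 genes of this group or named with it are described here. They are the protamine genes Prm1 and Prm2, the transition protein genes Tnp1 and Tnp2, and the spermatid linker histone genes H1fnt and Hils1. The last is Prm3, a neighbour of Prm1 and Prm2 that is included for its name and place, whatever its protein does. These 7 were taken by symbol from the 22480 promoters of the deposited table, which holds 1 promoter per gene, and all 7 were found. H1fnt is listed as H1f7 in RefSeq and was matched by its gene number.

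When round spermatids elongate, most histones leave the chromatin and transition proteins take their place for a short time. Protamines then replace the transition proteins and compact the paternal genome. The genes are transcribed in haploid cells, their mRNAs are stored, and translation follows later. Mature sperm no longer transcribe them, so a methylation level in sperm is read after the genes have done their work.

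Sperm DNA came from 20 F1 males, with 1 library each and 5 in each of 4 groups. Both inbred strains, C57BL/6J and FVB/N, gave a control group and a DEHP group. DEHP is the plasticizer bis(2-ethylhexyl)phthalate. For the DEHP groups, pregnant females were given 300 mg/kg/day by mouth in corn oil from gestation day 9 to 19, and for the control groups corn oil alone. Sperm was collected at 8 weeks of age from the vas deferens and epididymis. In MBD-sequencing, a methyl binding domain pulls down fragments that carry methylated CG sites, and the signal of a promoter grows both with its methylation and with its number of CG sites. Each value below is the authors' mean and SD of normalized read-pairs over a probe that runs from 2000 bases before to 200 bases after the gene start. With only these group values, the depth of a library is unknown and no test between groups was made. A difference is instead set against the SD, and 2 groups are called separated when their means plus and minus 1.79 SD, the farthest that any of 5 values can lie from their mean, do not overlap. The DEHP libraries and the control libraries were submitted as different batches, each with both strains, so DEHP and batch cannot be told apart. The paper reports that the DEHP libraries had more read-pairs on average, and slightly longer reads, than the control libraries.

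The sperm label was checked with promoters of genes listed by the methylation expected in sperm. The probe of H19, a gene methylated on the paternal copy, had means of 17.5 to 25.3 read-pairs in the 4 groups. The medians over all promoters were 3.0 to 5.3. Whether the stretch of H19 that is methylated in sperm lies inside this probe was not tested, so these values do not settle the check. The 6 promoters that are methylated on the maternal copy and unmethylated in sperm had medians of 2.8 to 3.65. These were below the median of all promoters except in FVB/N controls (3.1 against 3.0). Among these 6, Nnat stood apart with 9.5 to 26.5 read-pairs. Nnat and Snrpn are named after their values were seen. Snrpn was higher after DEHP, from 0.5 ± 0.7 to 4.0 ± 1.0 in C57BL/6J (SD, n = 5), where the groups were separated, and from 1.1 ± 1.2 to 4.4 ± 1.2 in FVB/N, where they were not shown to be. The 5 germline promoters that are methylated in somatic cells and unmethylated in sperm had medians of 7.2 to 9.5. These were above the median of all promoters in each group, so this list did not meet the check. What share somatic DNA had in the values below was not tested.

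Coordinates are those of mm10, and sequences are from RefSeq for GRCm38.p6. Of the 7 probes, 4 lie within 10368 bases on chromosome 16, in the order Tnp2, Prm3, Prm2, Prm1, and all of these genes are on the minus strand. The probes are chr16:10788456-10790655 for Tnp2, chr16:10790715-10792914 for Prm3, chr16:10791898-10794097 for Prm2 and chr16:10796624-10798823 for Prm1. The Prm2 and Prm3 probes share 1017 bases (chr16:10791898-10792914), so read-pairs there count for both genes and their values are not independent. Between the Tnp2 and Prm3 probes lie only 59 bases, and a fragment of about 200 bases can reach both. The other 3 probes lie on other chromosomes, at chr1:73015700-73017899 for Tnp1 (minus strand), chr15:98257108-98259307 for H1fnt (minus strand) and chr11:94965661-94967860 for Hils1 (plus strand). The Tnp1 probe shares 536 bases with the probe of 1700027A15Rik, which is transcribed the other way.

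All 7 promoters had fewer CG sites than the median promoter. Prm2 had 16 CG sites in its probe, Hils1 17, Tnp2 23, Tnp1 25, Prm1 27, H1fnt 27 and Prm3 38, whereas the median of all promoters was 45. The number counted in GRCm38.p6 equalled the number in the table for each of the 7. The stretch just before the gene start holds few of them. In the 250 bases before the RefSeq gene start, Prm1 and Hils1 had 0 CG sites, Prm2, Prm3, Tnp1 and Tnp2 had 2 and H1fnt had 3, against a median of 6 over 32851 RefSeq windows. Of these windows, 7.9% had 0, 29.0% had at most 2 and 37.8% had at most 3, so only Prm1 and Hils1 were unusual. The RefSeq starts of Hils1 and Prm2 lie slightly upstream of those used for the probes. The windows of 4 of the genes are shown, since transcription starts at their end and they offer the methyl binding domain few targets or none. Capitals mark the CG sites.
Prm1, chr16:10796824-10797073, minus strand: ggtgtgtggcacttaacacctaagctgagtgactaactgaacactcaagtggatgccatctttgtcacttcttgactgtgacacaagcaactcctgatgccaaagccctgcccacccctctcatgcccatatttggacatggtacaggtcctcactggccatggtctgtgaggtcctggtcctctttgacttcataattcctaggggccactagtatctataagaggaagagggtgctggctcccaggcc
Prm2, chr16:10792106-10792355, minus strand: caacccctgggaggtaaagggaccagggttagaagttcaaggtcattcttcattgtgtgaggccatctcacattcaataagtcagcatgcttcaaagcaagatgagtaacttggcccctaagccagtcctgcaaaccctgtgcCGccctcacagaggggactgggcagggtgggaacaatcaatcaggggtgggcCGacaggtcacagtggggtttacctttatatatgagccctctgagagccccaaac
Tnp2, chr16:10788656-10788905, minus strand: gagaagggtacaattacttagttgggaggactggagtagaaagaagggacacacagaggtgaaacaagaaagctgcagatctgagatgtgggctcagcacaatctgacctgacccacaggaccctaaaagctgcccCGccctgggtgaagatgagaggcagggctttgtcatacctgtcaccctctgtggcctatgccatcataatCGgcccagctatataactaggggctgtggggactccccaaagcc
H1fnt, chr15:98257308-98257557, minus strand: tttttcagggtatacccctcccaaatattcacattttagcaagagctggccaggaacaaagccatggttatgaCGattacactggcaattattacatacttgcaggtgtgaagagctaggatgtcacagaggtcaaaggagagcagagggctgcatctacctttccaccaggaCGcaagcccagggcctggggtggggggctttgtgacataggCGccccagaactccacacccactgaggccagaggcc

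The cAMP response element TGACGTCA, to which activators of the CREB family bind, was searched on both strands from 250 bases before to 50 bases after the gene start. It was in 0 of the 7 windows and in 1.79% of all windows. Its shorter form TGACG, which is part of TGACGTCA, was in the H1fnt window only and in 20.8% of all windows. The TATA motif TATAAA was in the Prm2 window only, read on the other strand, and in 13.6% of all windows. These are matches of letters and no more.

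A large part of the CG sites of the Prm1, Prm3, Tnp1 and Tnp2 probes lies in exons instead. In the Prm2 probe, 6 of 16 CG sites lie in exons and 5 in coding sequence. The Tnp1 probe had 12 of 25 CG sites in exons and the Tnp2 probe 12 of 23, some of them in exons of a neighbouring gene. In Prm1, 14 of 27 CG sites lie in the exon after the gene start and 12 of these in the coding part. Prm3 had 27 of its 38 CG sites in exons, and 22 in coding sequence, much of it that of Prm2, whose whole body lies inside the Prm3 probe. The coding stretches that hold these sites are shown with those of Tnp1 and Tnp2, because capture at these probes depends on where the CG sites are.
Prm1 coding, in the Prm1 probe, chr16:10796626-10796731, minus strand: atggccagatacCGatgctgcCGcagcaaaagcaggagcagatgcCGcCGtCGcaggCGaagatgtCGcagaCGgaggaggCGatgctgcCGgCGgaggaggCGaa
Prm2 coding, in the Prm3 probe, chr16:10791740-10791998, minus strand: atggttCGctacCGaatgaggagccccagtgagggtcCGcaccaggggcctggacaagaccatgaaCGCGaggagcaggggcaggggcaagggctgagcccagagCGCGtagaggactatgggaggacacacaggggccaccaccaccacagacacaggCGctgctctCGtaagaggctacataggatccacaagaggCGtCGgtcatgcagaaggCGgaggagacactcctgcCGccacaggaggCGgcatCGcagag
Tnp1 coding, in the Tnp1 probe, chr1:73015725-73015863, minus strand: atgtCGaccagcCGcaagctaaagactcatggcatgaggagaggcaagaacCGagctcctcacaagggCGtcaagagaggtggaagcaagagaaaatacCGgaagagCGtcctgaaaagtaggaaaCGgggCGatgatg
Tnp2 coding, in the Tnp2 probe, chr16:10788456-10788601, minus strand: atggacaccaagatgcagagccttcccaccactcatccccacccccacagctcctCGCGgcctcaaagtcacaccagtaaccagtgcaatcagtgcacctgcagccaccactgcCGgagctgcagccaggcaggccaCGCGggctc

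Prm1 held 12 CG sites in 106 coding bases, or 11.3 per 100 bases, whereas its whole probe held 1.23 per 100. All 12 began a codon, and codons that begin with CG encode arginine, the amino acid in which protamines are richest. The Prm2 coding stretch in the Prm3 probe held 15 CG sites in 259 bases (5.79 per 100), and 12 of them began a codon. Only 5 coding CG sites lie in the Prm2 probe itself. Tnp1 had 8 in 139 bases (5.76 per 100) and 4 began a codon, and Tnp2 had 5 in 146 bases (3.42 per 100) and 2 began a codon. H1fnt had 8 of 27 CG sites in its exon, and Hils1 had 5 of 17. The densest 200 bases of the Hils1 probe, with 6 CG sites, were centred 1791 bases before the gene start and touched no exon. The 11 CG sites that the Prm2 and Prm3 probes share were 68.8% of those of Prm2 and 28.9% of those of Prm3.

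**Figure D1:**
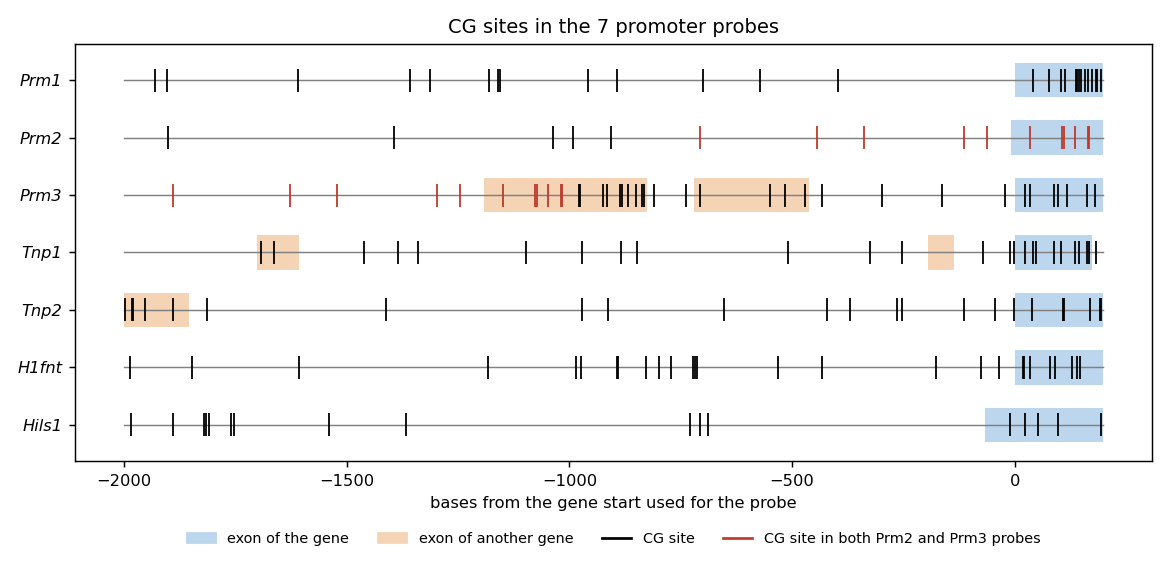
CG sites in the 7 probes. The horizontal axis gives bases from the gene start used for the probe, each row is 1 gene, vertical ticks are CG sites, blue boxes are exons of the gene, orange boxes are exons of another gene, and red ticks are the 11 sites inside both the Prm2 and the Prm3 probe. In Prm1, 14 of 27 sites crowd into the exon at the right end, and in Prm3 a dense group lies in the exons of Prm2.

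Expression in the testis was low in early germ cells and high in late ones for all 7 genes. The authors added to the table microarray values of C57BL/6J testicular cell populations from an independent study, on a scale that is not stated, so no ratios of the scores are given. In spermatogonia, the 7 genes had scores of 3.55 to 5.12, below the median of 5.80 over 17133 genes. In Sertoli cells, the somatic cells that nurse the germ cells, the scores were 3.44 to 5.62, below the median of 5.71.

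In spermatids the 7 scores were 11.02 to 14.30, with a median of 5.68 over all genes. Prm2 had the highest score of all 17133 genes (14.30), Tnp2 ranked 2 (14.17) and Prm1 ranked 5 (13.69). Hils1, a linker histone of elongating spermatids, scored 13.16 and ranked 25. Prm3 scored 12.24, H1fnt, a linker histone of round and elongating spermatids, 12.20, and Tnp1 11.02 with rank 534.

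Between spermatogonia and spermatids, Tnp2 had a difference of 10.34, the largest of all genes, followed among the 7 by Prm1 with 9.72, Prm2 with 9.31, Hils1 with 8.55, H1fnt with 7.85, Tnp1 with 7.47 and Prm3 with 7.12. Spermatocytes already scored high, from 9.61 for H1fnt to 12.59 for Prm2. The step from spermatocytes to spermatids was largest for H1fnt (2.59) and Prm3 (2.58) and smallest for Tnp1 (1.17). Whether the spermatocyte fraction held spermatids was not tested. No replicate error was given for the scores. Of the 7 genes, all were marked for spermatogenesis in the table, and only Prm2 carried the mark of the sperm proteome of Swiss mice.

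**Figure D2:**
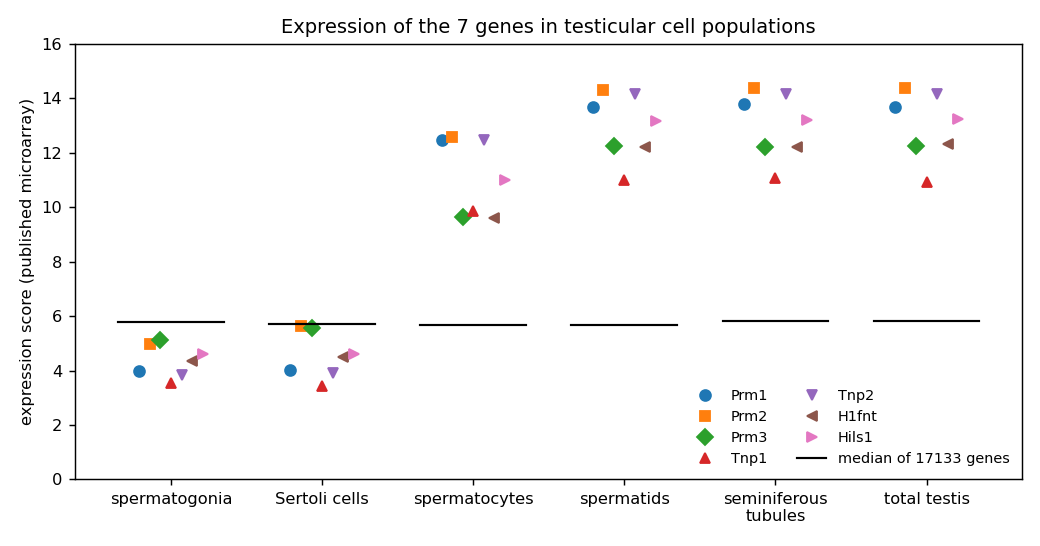
Expression scores of the 7 genes in 6 testicular populations of a published microarray study. The vertical axis is the score on the scale of that study, points are genes, and black bars are the median of 17133 genes. All 7 points lie below the bar in spermatogonia and Sertoli cells and far above it in spermatocytes, spermatids, tubules and testis.

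In control sperm, Tnp1 and H1fnt had lower levels than the other 5 promoters, although each of the 7 was above the median of all promoters. Prm3 had the highest mean in each of the 4 groups. In C57BL/6J controls it had 69.0 ± 27.7 read-pairs (SD, n = 5), followed by Tnp2 with 43.1 ± 19.7, Prm2 with 28.9 ± 6.5, Hils1 with 25.3 ± 1.8 and Prm1 with 24.2 ± 11.9. H1fnt with 7.8 ± 5.3 and Tnp1 with 6.4 ± 2.7 closed the order. Of the 6 gaps between neighbours in this order, only that between Prm1 and H1fnt (16.4) was above the larger SD of the pair.

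In FVB/N controls, Prm3 had 49.6 ± 13.6, Tnp2 28.0 ± 7.2, Prm1 27.4 ± 4.5, Hils1 21.2 ± 11.8, Prm2 19.7 ± 9.1, H1fnt 6.5 ± 1.4 and Tnp1 6.2 ± 3.7. Here the gaps from Prm3 to Tnp2 (21.6) and from Prm2 to H1fnt (13.2) were above the larger SD. So H1fnt and Tnp1 were the lowest of the 7 in both strains, and the order of the genes between Prm3 and this pair was not resolved by the SDs.

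The order was not that of the number of CG sites. Per CG site, Tnp2 had 1.87 read-pairs in C57BL/6J controls, Prm3 1.82, Prm2 1.81, Hils1 1.49 and Prm1 0.90, whereas H1fnt had 0.29 and Tnp1 0.26. The median of all promoters was 0.138 and 91.8% of promoters were below 1. In FVB/N controls, the same 5 genes had 1.01 to 1.31 and the pair 0.24 to 0.25, with 98.1% of all promoters below 1. Prm1, H1fnt and Tnp1, with 25 to 27 CG sites each, thus had unlike levels.

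Among promoters with a similar number of CG sites (within 5), Prm2 in C57BL/6J controls was above 99.1% of 3214, Tnp2 above 98.9% of 3189, Prm3 above 98.7% of 2589, Hils1 above 96.2% of 3200 and Prm1 above 68.7% of 3085. H1fnt was above 29.8% of 3085 and Tnp1 above 24.7% of 3156. In FVB/N controls, Prm2 was above 99.4%, Hils1 above 99.2%, Prm3 above 99.0%, Tnp2 above 98.7% and Prm1 above 95.7%, with H1fnt at 39.4% and Tnp1 at 38.8%. Tnp1 and H1fnt were thus in the lower part of the range for their CG content, and the other 5 genes in its upper part.

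**Figure D3:**
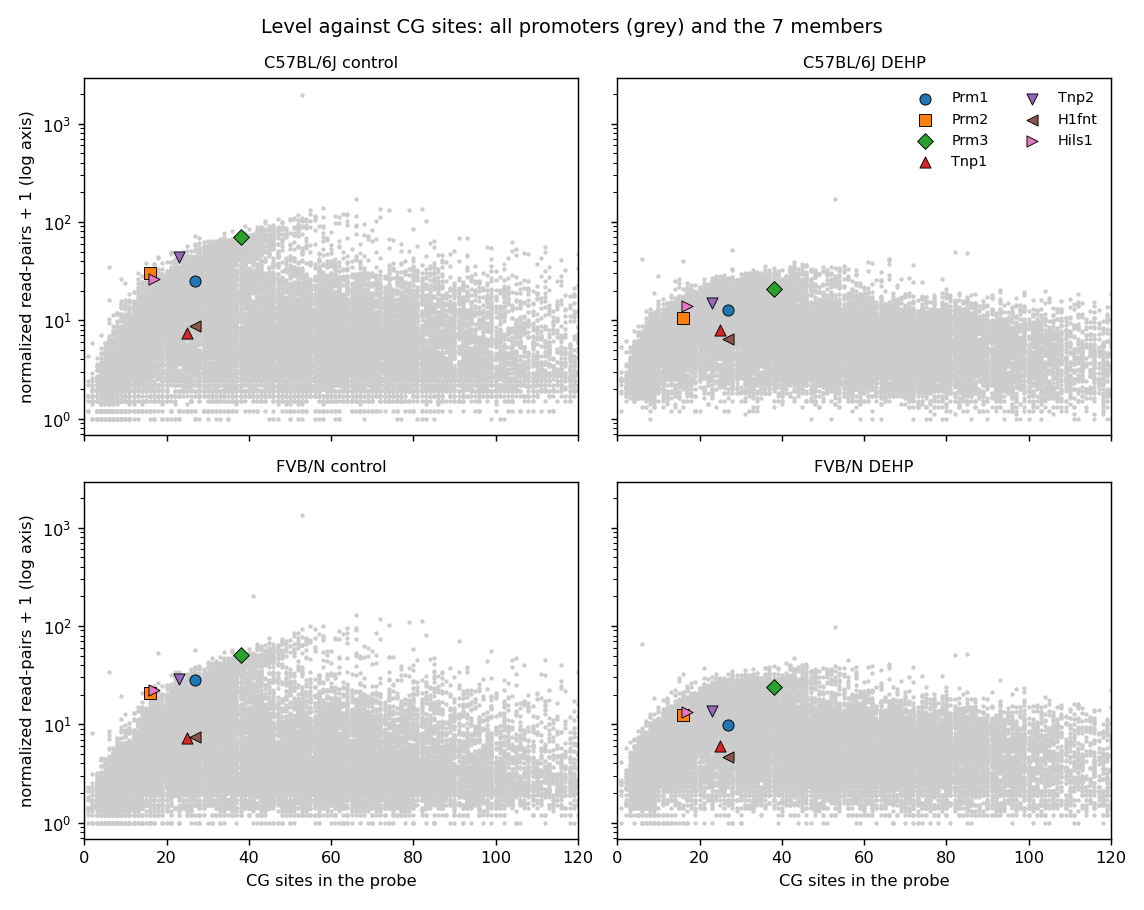
Level against CG sites in the 4 groups. The horizontal axis is the number of CG sites in the probe (the 890 promoters above 120 lie outside the axis), the vertical log axis is the authors' mean of normalized read-pairs plus 1, grey dots are all promoters and coloured symbols the 7 genes. Prm3, Tnp2, Prm2 and Hils1 lie along the upper edge of the grey cloud in both control groups and inside it in both DEHP groups.

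The spread between libraries differed as much as the levels. Hils1 in C57BL/6J controls had an SD of only 0.0711 of its mean, and 0.5% of the 1637 promoters with a mean within 20% of it had a smaller ratio. In FVB/N controls the same promoter had an SD of 0.557 of its mean. Prm1 showed the opposite order, with 0.492 in C57BL/6J controls and 0.164 in FVB/N controls. By the same bounds, each Hils1 library of C57BL/6J controls lay between 21.9 and 28.7 read-pairs, and each Prm1 library of FVB/N controls between 19.2 and 35.6.

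After prenatal DEHP, 6 of the 7 promoters had a lower mean than controls in C57BL/6J. There the median log2 ratio of all promoters was -0.10, and -0.89 among those with a control mean of at least 15. Prm3 had 19.8 ± 7.9 read-pairs after DEHP against 69.0 ± 27.7 in controls, a log2 ratio of -1.75 ± 0.79 (n = 5 per group, pseudocount of 1). Here and below, the ± of a log2 ratio is the spread of single libraries from both SDs, wider than a standard error. Tnp2 had 14.1 ± 4.5 against 43.1 ± 19.7 and a log2 ratio of -1.55 ± 0.77. Prm2 had 9.6 ± 2.7 against 28.9 ± 6.5, with a log2 ratio of -1.50 ± 0.48 or 2.82-fold lower on the same scale.

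Prm1 had 11.8 ± 2.9 against 24.2 ± 11.9 and a log2 ratio of -0.98 ± 0.76. Hils1 had 12.9 ± 3.9 against 25.3 ± 1.8, a log2 ratio of -0.92 ± 0.42. H1fnt had 5.4 ± 2.5 against 7.8 ± 5.3, with a log2 ratio of -0.46 ± 1.04, and Tnp1 had 7.0 ± 1.3 against 6.4 ± 2.7, with 0.11 ± 0.58. The differences of H1fnt (0.45 of the larger SD) and Tnp1 (0.22) were well inside the spread.

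Of the 7, Prm2 and Hils1 were separated between the C57BL/6J groups, both lower after DEHP. For Prm2 any control library had at least 17.1 read-pairs and any DEHP library at most 14.6, and for Hils1 the limits lay 1.92 read-pairs apart. Prm3 (difference of 49.2 read-pairs), Tnp2 (29.0) and Prm1 (12.4) had control SDs of 27.7, 19.7 and 11.9, and their groups were not shown to be separated. Over all promoters, 1.42% were separated lower after DEHP and 0.249% higher, that is 319 and 56 promoters. The deposited means of all promoters summed to 226268 in C57BL/6J controls and to 153283 after DEHP. In FVB/N the sums were 141092 and 150346. When the 4 groups were scaled to equal sums, the split in C57BL/6J turned to 29 lower and 230 higher. On that scale 0 of the 7 genes were separated, Prm2 had a log2 ratio of -0.96, Hils1 of -0.39 and H1fnt of 0.03.

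Over the whole table, the log2 ratio varied with the level of the promoter in controls. The median log2 ratio of all promoters was -0.10 in C57BL/6J, and 10.7% of promoters were below -1, as were Prm3, Tnp2 and Prm2. Among the 4725 promoters with a control mean of at least 15, the median was -0.89, 40.7% were below -1 and 6.2% were separated lower. In that range of levels, the log2 ratio of Prm3 was at percentile 3.8, that of Tnp2 at 8.6 and that of Prm2 at 10, whereas Prm1 and Hils1 stood at percentiles 42.8 and 47.4, near the middle. The control mean enters both the choice of this range and the ratio, so these are not independent.

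In FVB/N, all 7 promoters had a lower mean after DEHP. There the median log2 ratio of all promoters was 0.35, and -0.48 among those with a control mean of at least 15. Prm1 had 8.9 ± 2.1 read-pairs against 27.4 ± 4.5 in controls, a log2 ratio of -1.52 ± 0.38 and 2.87-fold lower (n = 5 per group). Any Prm1 control library had at least 19.2 read-pairs and any DEHP library at most 12.8, so the groups were separated. Prm1 was the only separated gene of the 7, and its log2 ratio was in the lowest 0.4% of all promoters.

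Prm3 had 22.8 ± 3.6 against 49.6 ± 13.6 with a log2 ratio of -1.09 ± 0.44, and Tnp2 had 12.7 ± 3.0 against 28.0 ± 7.2 with -1.08 ± 0.48. For both, the bounds of the groups overlapped by little, 4.25 read-pairs for Prm3 and 3.23 for Tnp2. Prm2 had 11.3 ± 5.8 against 19.7 ± 9.1 and Hils1 12.3 ± 3.1 against 21.2 ± 11.8, with log2 ratios of -0.75 ± 0.93 and -0.74 ± 0.84 that lie inside the spread. H1fnt had 3.6 ± 2.0 against 6.5 ± 1.4 (-0.71 ± 0.68), and Tnp1 had 5.0 ± 2.7 against 6.2 ± 3.7 (-0.26 ± 0.99).

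On the deposited scale, the median log2 ratio of all promoters was 0.35 in FVB/N. It was 0.29 on equal sums and -0.18 on equal medians, and the values for C57BL/6J were 0.33 and -0.16 on these scales. On the deposited scale, 2.68% of promoters were below -1, and 0.859% were separated lower and 0.774% higher, or 193 and 174 promoters. When the groups were scaled to equal medians, the split was 731 lower and 28 higher, and Prm1, Prm3 and Tnp2 were separated. Among the 2324 promoters with a control mean of at least 15, the median was -0.48, 15.6% were below -1 and 7.53% were separated lower. Within that range Prm1 was at percentile 2.9, Prm3 at 11.4, Tnp2 at 11.6, Prm2 at 29.6 and Hils1 at 30.3 of the log2 ratios.

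**Figure D4:**
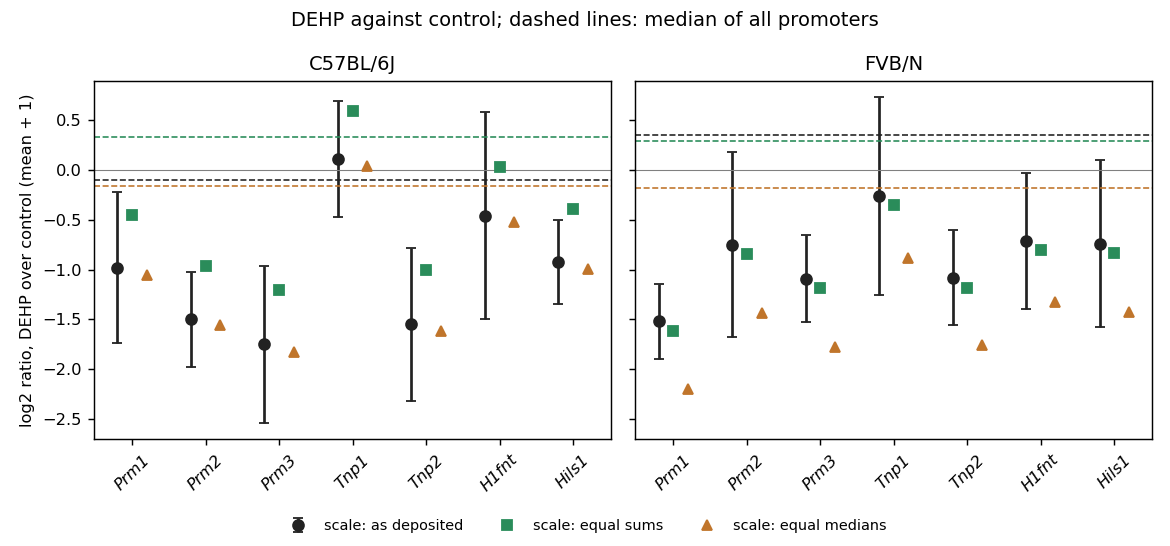
Log2 ratio of DEHP over control for the 7 genes, C57BL/6J left and FVB/N right. Black circles are the deposited means with a pseudocount of 1 and error bars from both SDs, green squares and orange triangles are the same ratios after scaling the 4 groups to equal sums or equal medians, and dashed lines are the median of all promoters on each scale. Every gene except Tnp1 lies below the median of all promoters on each of the 3 scales in C57BL/6J, and all 7 do in FVB/N.

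The same 4 genes of the chromosome 16 cluster were lower after DEHP in both strains and on each of the 3 scales, as was Hils1. These 5 are the genes of the 7 with control means of at least 15. Most promoters at such levels were lower too, with a deposited-scale median log2 ratio of -0.48 for FVB/N and -0.89 for C57BL/6J. The share of them lower in both strains was not counted. Prm2 and Prm3 also share read-pairs, so the cluster does not give 4 independent results. Of the 7, 0 were separated in both strains, and of all promoters 39 or 0.173% were separated lower in both, a share at which 0 of 7 says nothing about these genes. The log2 ratio in C57BL/6J minus that in FVB/N was 0.54 ± 0.85 for Prm1, 0.38 ± 1.15 for Tnp1 and 0.25 ± 1.24 for H1fnt. It was -0.18 ± 0.94 for Hils1, -0.46 ± 0.91 for Tnp2, -0.66 ± 0.90 for Prm3 and -0.75 ± 1.05 for Prm2. On the deposited scale each lay inside its spread around 0, and the median over all promoters was -0.50. On that scale a difference of the response between strains was thus not shown for any of the 7. For Prm1 the difference was 1.17 on equal sums and 1.15 on equal medians, above its spread, against medians of 0.02 and -0.01. The outcome for Prm1 therefore depended on the scale.

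In DEHP sperm Prm3 was again highest, and Tnp1 and H1fnt were again lowest, in exchanged order. In C57BL/6J DEHP, the means ran from 19.8 for Prm3 to 5.4 for H1fnt and 0 of the 6 gaps between neighbours exceeded the larger SD. In FVB/N DEHP, the gaps from Prm3 to Tnp2 (10.1) and from Prm1 to Tnp1 (3.9) did. Among promoters with similar CG sites, Prm3 was above 87.5% in C57BL/6J DEHP and above 91.3% in FVB/N DEHP, Hils1 above 81.8% and 77.9%, Tnp2 above 68.6% and 59.5%, Prm2 above 64.7% and 77.0%, and Prm1 above 50.7% and 39%. H1fnt was above 21.4% and 16.3%, and Tnp1 above 27.7% and 21.4%.

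**Figure D5:**
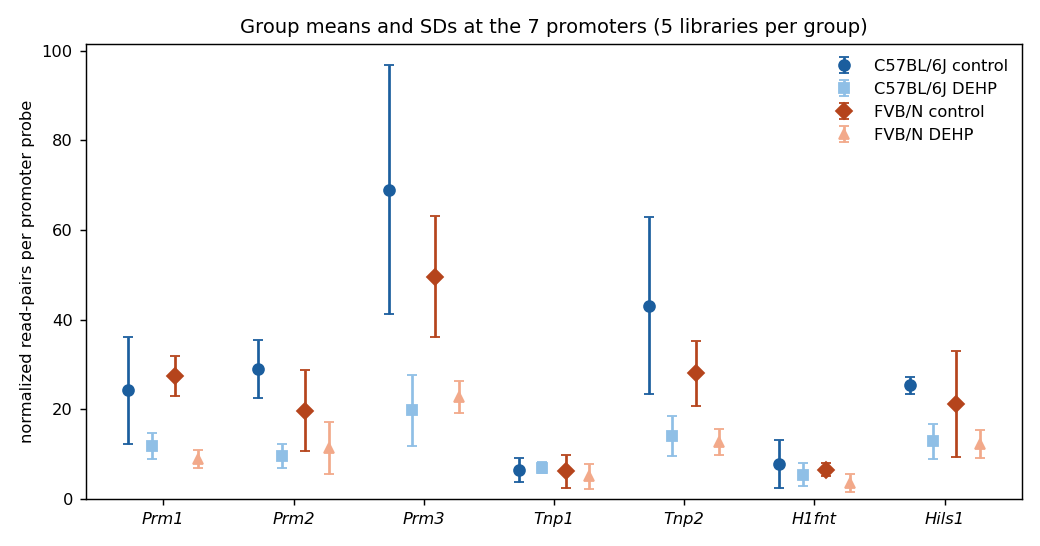
Normalized read-pairs per promoter probe of the 7 genes. Symbols are the authors' means of 5 libraries, bars are their SDs, and colours are the 4 groups. Prm3 is highest in each group (69.0 and 19.8 in control and DEHP sperm of C57BL/6J, 49.6 and 22.8 in those of FVB/N), and Tnp1 and H1fnt stay between 3.6 and 7.8.

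The strains were compared within each treatment. In controls, the log2 ratio of C57BL/6J over FVB/N ran from -0.17 for Prm1 to 0.60 for Tnp2, with a median of 0.24 for the 7 and of 0.54 for all promoters. None of the 7 was separated, against 1.09% of all promoters (239 higher and 6 lower in C57BL/6J, or 69 and 25 on equal sums). On the scales of equal sums and equal medians all 7 ratios were below 0, so that 6 signs turned and only Prm1 kept its sign, with a difference of 0.27 of the larger SD in size. Only the difference of Prm2, 9.2 read-pairs, was as large as the larger SD (1.01 SD).

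In DEHP sperm the ratio ran from -0.21 for Prm2 to 0.48 for H1fnt, with a median of 0.14 for the 7 and 0.04 for all promoters. None was separated, against 0.338% of all promoters. The table lists 1 promoter variant between the strains in Prm3, 6 promoter variants and 2 variants that alter the protein in Hils1, and 0 in the other 5 genes.

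The promoter next to Tnp1 gave a check of how local the values are. 1700027A15Rik had 13.0 ± 5.5 read-pairs in C57BL/6J controls and 6.4 ± 1.1 after DEHP, and 11.3 ± 5.5 and 10.1 ± 1.2 in FVB/N, and was not shown to be separated in either strain. Tnp1 itself stayed between 5.0 and 7.0 in these groups although 536 of its bases are shared. Beyond the chromosome 16 cluster, the next gene named here is Socs1, chosen after its values were seen. It encodes a suppressor of cytokine signalling and had 4.3 ± 2.9, 1.6 ± 0.8, 1.8 ± 0.9 and 3.4 ± 1.3 read-pairs in control and DEHP sperm of C57BL/6J and then of FVB/N, below the protamine probes. The Socs1 probe held 81 CG sites, more than any of the 7, so these levels are not compared at similar CG content.

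By the Euclidean distance of log2 means over the 4 groups, the promoters most like that of Prm3 were Camk2a (0.099), Scx (0.118) and Mir6915 (0.12). Camk2a had 69.8, 20.5, 52.6 and 22.5 read-pairs in the same order of groups, and its C57BL/6J groups were separated. These 3 promoters have 40 to 68 CG sites, more than Prm3.

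The wider set of genes for the exchange of histones showed few separated promoters. Of 10 testis and replacement histone variants, 0 were separated in C57BL/6J, and 2 were separated lower after DEHP in FVB/N, where 0.859% of all promoters were. These were Hist1h2ba, which encodes the testis histone TH2B, with 9.6 ± 2.1 in controls and 2.0 ± 0.8 after DEHP, and Hist1h2aa, which encodes its partner TH2A, with 11.4 ± 3.1 and 1.6 ± 1.1. Their log2 ratios were -1.82 and -2.25, and the 2 probes share 705 bases and are not independent. In C57BL/6J they had 5.9 ± 5.0 and 3.0 ± 2.0, and 6.6 ± 5.7 and 2.4 ± 1.2. For the 10 together, the C57BL/6J groups gave a median log2 ratio of -0.41 and the FVB/N groups 0.01, against -0.10 and 0.35 for all promoters.

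Of 12 regulators of protamine and transition protein expression, 9 were analysed here and 0 were separated in any of the 4 comparisons, in which 0.249% to 1.42% of all promoters were separated in the directions given above, so a count of 0 is near the background. The C57BL/6J groups gave a median log2 ratio of -0.31 for these 9, and the FVB/N groups 0.31, beside -0.10 and 0.35 for all promoters. Piwil1, a PIWI protein of the testis, had 8.9 ± 5.5 in control and 4.0 ± 1.0 in DEHP sperm of C57BL/6J, and 8.3 ± 3.6 and 4.0 ± 1.8 in those of FVB/N, chosen after its values were seen.

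Of 13 genes for the removal of histones and the loading of protamines, 1 was separated, lower after DEHP in C57BL/6J, where 1.42% of all promoters were. This was Nutm1, whose protein takes part in the acetylation of histones in spermatids, and on equal sums it was not separated. It had 15.6 ± 2.8 in C57BL/6J controls and 5.5 ± 1.6 after DEHP, a log2 ratio of -1.35, and 10.9 ± 3.4 and 8.2 ± 2.9 in FVB/N. For the 13, the median log2 ratios were -0.12 and 0.52, against -0.10 and 0.35 for all promoters. Between the strains, 0 promoters of the 3 lists were separated in controls or in DEHP sperm.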

How the data were processed

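Sperm DNA of 20 mice was captured with a methyl binding domain and sequenced. Per the authors, Bowtie 0.12.7 placed the read-pairs on mm10, and they removed ambiguous pairs and pairs without CpG, counted pairs over promoter probes and normalized them with edgeR. The signal values deposited by the authors are means and SDs of 5 libraries per group, with 1 decimal. The expression score was added by the authors from an independent microarray study. The deposited columns with the authors' own fold changes, p-values and FDR per comparison were not used. Depth per library is unknown.

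The tests planned for counts were replaced by a description without test. Computed were log2 ratios of means plus a pseudocount of 1, with a spread from both SDs. This spread is that of single libraries and is wider than a standard error. Groups were called separated by bounds of 1.79 SD around the mean, with 0.05 added to mean and SD for rounding. The separation was tested on simulated data. The genes and lists were chosen with earlier results of these data known. The genes named are the 7, those with overlapping probes, the 3 promoters nearest in pattern to the highest of the 7, each gene of the lists that was separated, and sperm marker promoters from a list. Exceptions are marked as chosen after their values were seen. CG sites, exons and promoter windows came from the RefSeq sequence and annotation of GRCm38.p6, whose probe sequences gave the CG counts of the table. Alternatives were a pseudocount of 0.1, scaling to equal sums or equal medians, bounds of 1 SD, a filter on means of at least 1, and other ranges of CG sites. The range of control means of at least 15 was added after the data were seen. Python 3.11.15, numpy 2.4.6, pandas 2.3.3, matplotlib 3.10.9 and samtools 1.23.1 were used.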

Additional observations from a re-analysis of the deposited data

How the results depend on the processing

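With bounds of 1 SD in place of 1.79 SD, 4 of the 7 genes were separated lower after DEHP in C57BL/6J (Prm2, Prm3, Tnp2 and Hils1) and 3 in FVB/N (Prm1, Prm3 and Tnp2), against 2 and 1. On equal sums the count was 0 in C57BL/6J but stayed at 1 in FVB/N. On equal medians the count was 2 for C57BL/6J and 3 for FVB/N. The count was 0 in the higher direction and in both strain comparisons under each of these settings. Over all promoters, bounds of 1 SD gave 2517 lower and 648 higher after DEHP in C57BL/6J, 764 lower and 1664 higher after DEHP in FVB/N, 42 and 1981 between control strains and 114 and 499 between DEHP strains. Equal medians gave 29 lower and 65 higher between control strains. The filter on means of at least 1 left each count within 1.5 times. On equal sums, Nutm1 was not separated.

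The pseudocount of 0.1 moved 0 of 28 log2 ratios of the 7 genes beyond their spread, equal sums 2 and equal medians 4. The sign of H1fnt in C57BL/6J turned on equal sums, that of Hils1 between DEHP strains turned on equal medians, and 6 of 7 signs turned between control strains on both scales. The causes of these moves were not tested. Other ranges of CG sites moved 3 of 56 percentiles beyond the spread, of H1fnt and Hils1.

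No fit without a library was made, since only group means were used. No paired analysis was possible because the labels carry no replicate numbers and only group means and SDs were used. A shift smaller than about 1.79 SD of both groups together cannot appear as a separation here.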
